A study of Mus musculus with 12 samples.

Results

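Hif1a, the glycolytic enzymes and a set of genes known to respond to low oxygen were followed across 4 populations of sorted mouse CD4 T cells. The set was a list of 40 genes, each read from the probe with the highest mean over the 12 arrays. Of these, 36 had a probe under the platform's annotation and 33 were bright enough to be tested, among 12119 genes tested in all. The 40 genes comprised 15 glycolytic enzymes, 6 genes of oxygen sensing, 2 lactate transporters, 3 regulators of glycolytic flux, 4 genes of glycogen and hexose phosphate handling and 10 other hypoxia targets. Hk2, Gpi1, Eno1 and Pfkfb3 matched no probe and are not analysed here. Ero1l was found under its current symbol, Ero1a. Bnip3, Ero1l and Gbe1 stayed near or below the array medians of 4.66 to 4.68, with values on the 12 arrays of 4.35 to 4.62, 4.30 to 4.82 and 4.32 to 4.73, and were not tested.

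HIF-1 is a pair of proteins, the oxygen-regulated subunit made from Hif1a and its constant partner made from Arnt. When oxygen is present, prolyl hydroxylases (Egln1, Egln3) mark the Hif1a protein so that the ubiquitin ligase adaptor Vhl can direct its destruction, and the asparaginyl hydroxylase Hif1an blocks its activity. Stabilised HIF-1 turns on most steps of glycolysis and, in T cells, antigen receptor and cytokine signals can raise Hif1a mRNA and protein without low oxygen. Arrays measure mRNA alone, so the stability of the protein is outside these data.

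The cells came from C57BL/6 donors aged 8 to 12 weeks that carried a Foxp3 reporter. Donor T cells were naive, and those with Blimp1 gave the Ctrl arrays and those without it the CKO arrays. Both kinds were given together, in equal shares, to RAG1-/- hosts, which cannot form T or B cells, so the 4 populations shared their hosts for 6 to 8 weeks. Foxp3-positive cells (labelled pTreg, here Treg) and Foxp3-negative cells (Teff) of each genotype were then sorted from spleen, mesenteric nodes and large-bowel lamina propria combined, and were given PMA and ionomycin for 4 h. Every array therefore shows cells shortly after strong stimulation. The sources used here do not say how Blimp1 was deleted, nor whether the 3 samples of a group came from separate animals. A p-value therefore covers only the spread among the samples, which may be technical. Prdm1, which encodes Blimp1, averaged 9.04 on CKO Treg and 8.26 on CKO Teff arrays against 5.77 and 4.92 on their controls, the reverse of a loss of signal. Where its probe lies relative to the deletion is not given, so this does not check the labels, and Ctrl and CKO below mean the arrays so labelled.

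The arrays had nearly equal medians and correlated with each other at 0.943 to 0.988. The mean of 8 CD4 T cell markers lay between 10.1 and 10.8 on every array, and Foxp3 lay at 7.29 to 8.94 on Treg arrays against 4.42 to 4.85 on Teff arrays. Markers of other cells were present at levels that varied between arrays: the mean of 17 neutrophil markers ranged from 5.62 to 9.66, and that of 10 basophil and mast cell markers was 8.59 and 8.13 on CKO Teff arrays 1 and 2 against 4.76 to 5.92 on the other 10. In RNA from bulk samples, fewer cells of a type and less RNA per cell cannot be told apart. The arrays were also put into sets of 6, Treg 1, Teff 1 and Teff 2 of both genotypes against Treg 2, Treg 3 and Teff 3. On the main axis of the residuals the first set lay at −0.64 to 36.3 and the second at −43.2 to −2.61, without a clear gap. In log2 values 753 of the 12119 genes were fully separated between the sets, with none of the 33 members among them. The labels name no batch. The sets were drawn after seeing these data, so the separated genes do not test them. By their definition each same-numbered CKO and Ctrl pair lies inside 1 set. Residuals of those pairs deviated together, so genotype differences are given without pairs and with them.

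The promoters of the 5 members that passed a genotype test in Treg, and that of the lactate dehydrogenase gene Ldha, a classic HIF-1 target that did not, are shown because HIF-1 binds short sites whose core is ACGTG or GCGTG. The sequences are the 250 bases before the annotated start site in RefSeq (GRCm38.p6), 5′ to 3′ on the gene's strand, with both cores in capitals on either strand, so that CACGT and CACGC mark matches on the opposite one. Hif1a lies at chr12:73907617-73907866 on the plus strand, Pgam1 at chr19:41911621-41911870 on the plus strand, Pfkl at chr10:78009808-78010057 on the minus strand, Pfkp at chr13:6648772-6649021 on the minus strand, Tpi1 at chr6:124814159-124814408 on the minus strand, and the more upstream of 2 Ldha entries at chr7:46845554-46845803 on the plus strand.
Hif1a: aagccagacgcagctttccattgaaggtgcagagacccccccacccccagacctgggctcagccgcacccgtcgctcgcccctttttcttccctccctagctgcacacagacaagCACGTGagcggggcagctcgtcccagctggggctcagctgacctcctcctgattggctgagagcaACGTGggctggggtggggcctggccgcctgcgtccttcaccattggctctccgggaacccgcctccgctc
Pgam1: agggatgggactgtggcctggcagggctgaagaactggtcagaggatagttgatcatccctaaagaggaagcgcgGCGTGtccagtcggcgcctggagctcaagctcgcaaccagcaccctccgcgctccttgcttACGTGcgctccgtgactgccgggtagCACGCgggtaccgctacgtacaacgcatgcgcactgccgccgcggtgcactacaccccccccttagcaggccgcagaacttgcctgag
Pfkl: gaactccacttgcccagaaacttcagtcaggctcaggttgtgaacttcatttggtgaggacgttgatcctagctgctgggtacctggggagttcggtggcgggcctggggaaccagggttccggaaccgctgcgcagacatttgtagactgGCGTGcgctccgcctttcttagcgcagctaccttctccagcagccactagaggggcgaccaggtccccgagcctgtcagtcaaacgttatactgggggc
Pfkp: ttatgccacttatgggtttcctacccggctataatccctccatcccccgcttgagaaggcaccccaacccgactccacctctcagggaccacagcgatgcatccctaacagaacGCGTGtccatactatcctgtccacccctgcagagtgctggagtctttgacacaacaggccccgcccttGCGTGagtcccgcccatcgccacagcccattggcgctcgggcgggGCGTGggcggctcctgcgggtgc
Tpi1: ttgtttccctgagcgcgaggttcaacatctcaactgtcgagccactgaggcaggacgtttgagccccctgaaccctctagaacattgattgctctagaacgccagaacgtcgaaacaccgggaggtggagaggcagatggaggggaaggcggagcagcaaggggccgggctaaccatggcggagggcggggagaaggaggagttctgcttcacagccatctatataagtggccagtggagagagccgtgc
Ldha: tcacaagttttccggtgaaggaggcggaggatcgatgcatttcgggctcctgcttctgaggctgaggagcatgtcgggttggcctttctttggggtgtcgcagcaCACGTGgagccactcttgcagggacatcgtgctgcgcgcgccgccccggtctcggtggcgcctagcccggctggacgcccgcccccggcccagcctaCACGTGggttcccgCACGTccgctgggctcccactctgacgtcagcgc

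Hif1a had 3 matches to ACGTG and none to GCGTG in this window, and the matches at −135 and −134 from the start site overlap as the palindrome CACGTG, which is also an E-box. Pgam1 had 1 match to ACGTG and 2 to GCGTG. Pfkl had a single GCGTG, Pfkp had 3, and Tpi1 had neither core. Ldha had 5 matches to ACGTG, 4 of them in 2 copies of CACGTG. A promoter entry existed for 38 of the 40 members, with 56 start sites in all (Bnip3l and Ndrg1 had none), and 41 of the 56 windows (73.2%) held at least 1 core. Over all 32851 RefSeq mouse promoters the share was 38.6%. Among the enzymes it was 20 of 26 (76.9%) and among the other members 21 of 30 (70.0%). Base composition was not matched between these sets, and a match is a string of letters, not a bound site. The members were listed for their tie to HIF-1 and low oxygen, and a gene counts once per start site. These shares are therefore not a result of the arrays.

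In Treg, Hif1a and several enzymes of the pathway were higher on the arrays labelled CKO. None of the 8 other hypoxia targets tested passed, of which P4ha2 and Vegfa lay near the array medians in Treg. Without pairs, Hif1a and the phosphoglycerate mutase gene Pgam1 rose, 2 of 33 members, and none fell. The same test called 0.099% of all genes, 0.0413% as higher. With pairs, the phosphofructokinase genes Pfkl and Pfkp and the triosephosphate isomerase gene Tpi1 also rose, giving 5 of 33 higher and none lower, where 2.18% of all genes passed and 0.883% passed as higher. With the pairs as a random term only Hif1a and Pgam1 passed, and Pfkl, Pfkp and Tpi1 had limma adjusted p of 0.0735, 0.0758 and 0.296. The list was drawn up with earlier results in view, so these shares are not independent of the choice of genes.

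Hif1a lay at log2 values of 7.41, 6.83 and 7.31 on Ctrl Treg arrays 1 to 3 and at 8.52, 8.33 and 8.37 on CKO Treg arrays. Every CKO Treg array was above every other array of the series, the nearest being CKO Teff array 1 at 7.95. The group means were 7.18 ± 0.31 and 8.41 ± 0.10 (SD, n = 3), a rise of 1.23 ± 0.16 (SE; limma, adjusted p = 0.0164, and 0.00522 with pairs). The 3 pairs differed by 1.11, 1.51 and 1.06. Hif1a has a single probe on this platform, so no other probe tests the reading. Without pairs the call was lost when Ctrl Treg array 3 or any 1 of the CKO Treg arrays was left out (adjusted p = 0.0513 to 0.123), while the difference stayed between 1.05 and 1.34.

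Pgam1 makes the enzyme that converts 3-phosphoglycerate to 2-phosphoglycerate late in the pathway. It lay at 8.08, 8.07 and 7.97 in Ctrl Treg and at 9.06, 8.92 and 8.75 in CKO Treg, 2 groups that do not overlap. It rose by 0.87 ± 0.11 (limma, adjusted p = 0.0130, and 0.00836 with pairs), with pair differences of 0.99, 0.86 and 0.78. A second, dimmer Pgam1 probe was higher in all 3 pairs too, by 0.64 on average (limma with pairs, adjusted p = 0.0891). The unpaired call was lost without any 1 of the Ctrl Treg arrays or without CKO Treg array 1 or 2 (adjusted p = 0.0552 to 0.0957), and the paired one without pair 1 or pair 2 (0.0768 and 0.0601).

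Phosphofructokinase commits sugar to glycolysis, and its liver-type and platelet-type subunits were both higher in CKO Treg. Pfkl lay at 9.02, 8.71 and 9.18 in Ctrl Treg and at 10.13, 9.97 and 10.24 in CKO Treg. The groups were apart, with pair differences of 1.12, 1.26 and 1.06 around a mean of 1.15 (limma, adjusted p = 0.736 without pairs, SE 0.43, and 0.00584 with pairs, SE 0.13). A second Pfkl probe at a mean level of 4.69, close to the array medians, differed by 0.02.

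Pfkp lay at 9.83, 8.74 and 9.19 in Ctrl Treg and at 10.75, 9.72 and 9.95 in CKO Treg. The groups overlap because the number 1 arrays of both genotypes were the highest of their groups, but each pair went the same way, by 0.92, 0.98 and 0.76. The mean was 0.89 (limma, adjusted p = 0.697 without pairs, 0.0195 with pairs), and a second probe gave 0.65 (0.0615 with pairs). The muscle-type subunit Pfkm was at 5.28, 5.28 and 5.37 against 5.49, 5.54 and 6.28, without overlap, and its difference of 0.46 did not pass (limma with pairs, adjusted p = 0.239).

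Tpi1 interconverts the 3-carbon products of aldolase. Its values were 11.06, 11.12 and 11.44 in Ctrl Treg and 11.85, 11.83 and 12.68 in CKO Treg, again 2 groups apart, with pair differences of 0.79, 0.70 and 1.24. The mean difference was 0.91 (limma, adjusted p = 1.00 without pairs, where the spread of the Teff arrays enters the SE of 0.56, and 0.0164 with pairs). Of the other Tpi1 probes, 1 differed by 0.82 (0.0498 with pairs) and the dimmer by 0.39, with pair 1 at −0.22. With pair 1 left out, only Hif1a of the 33 members passed the paired test, without pair 2 Hif1a and Pfkl, and without pair 3 Hif1a, Pfkl and Pgam1.

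**Figure D1:**
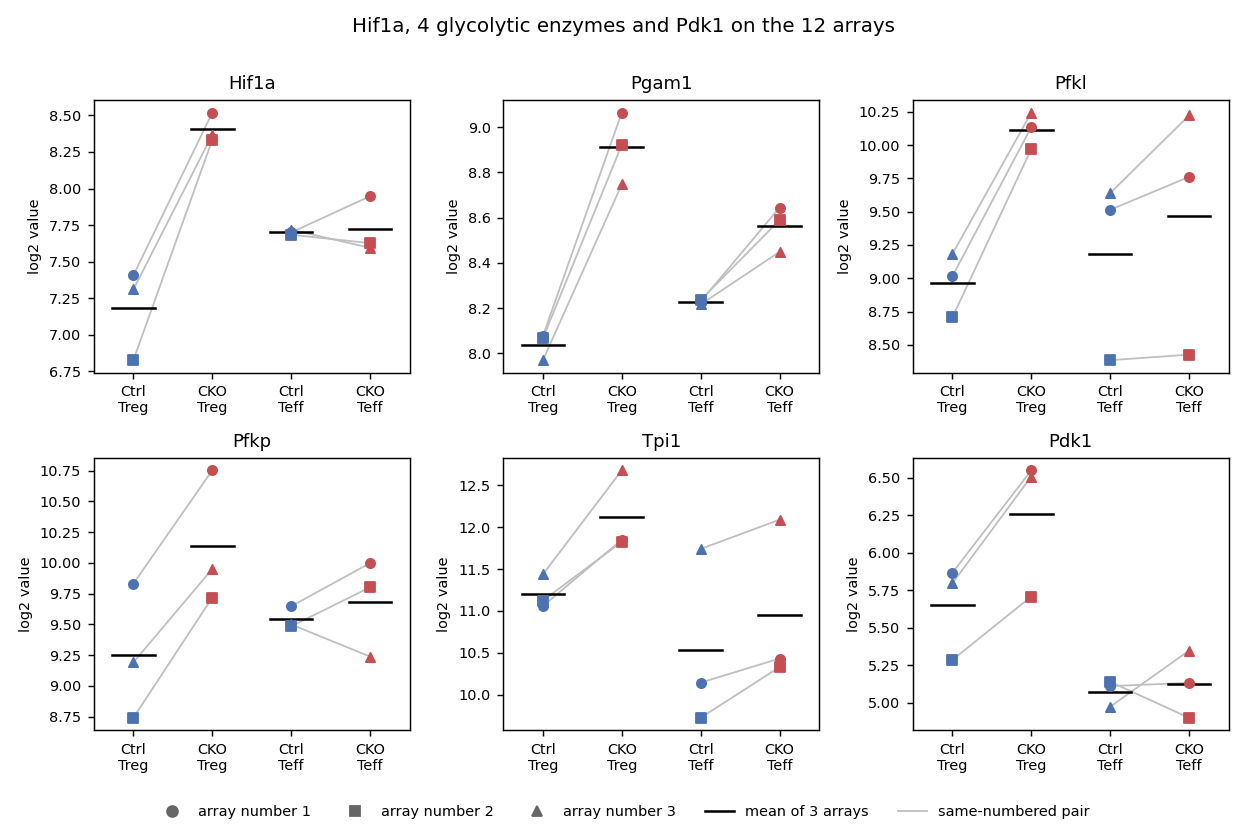
Log2 values of Hif1a, Pgam1, Pfkl, Pfkp, Tpi1 and Pdk1 (y axis, a scale of its own in each panel) on the 12 arrays by group (x axis). Points are arrays, with a shape for each replicate number, black bars are means of 3 arrays and grey lines join same-numbered CKO and Ctrl arrays; every Treg pair goes up in the 6 panels, and the 3 CKO Treg values of Hif1a (8.33 to 8.52) lie above all other arrays.

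The rest of glycolysis showed small differences between the genotypes in Treg. Gapdh, the glyceraldehyde phosphate dehydrogenase often used as a reference gene, was at 12.44, 12.20 and 12.32 in Ctrl and 12.65, 12.44 and 12.51 in CKO, a difference of 0.22 with a 95% interval of −0.02 to 0.45. The pyruvate kinase gene Pkm differed by 0.13 (−0.10 to 0.37), the aldolase gene Aldoa by 0.17 (−0.24 to 0.57) and the phosphoglycerate kinase gene Pgk1 by 0.26 (−0.28 to 0.80). Ldha differed by 0.01 (−0.35 to 0.37), with pairs going both ways. Hk1, which makes the hexokinase of the first step, was the only enzyme lower in CKO without overlap, at 5.65, 5.97 and 5.59 against 5.05, 5.38 and 5.58 (difference −0.40, limma with pairs, adjusted p = 0.424). Its pair 3 differed by only −0.004, and a second, dimmer Hk1 probe differed by −0.05, with pairs going both ways. Aldoc, a second aldolase gene near the array medians, was at −0.13. None of these 7 passed in either fit.

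By class, 10 of the 12 enzymes tested had a positive difference in Treg, with a median of 0.24, against 6091 of 12119 genes and a median of 0.00 over all genes. The enzymes' mean deviation from their own means over the 12 arrays was 0.37, 0.18 and 0.43 on CKO Treg arrays 1 to 3, the 3 highest of the series, and 0.03, −0.14 and −0.06 on Ctrl Treg arrays. The 4 enzymes that passed with pairs, at 0.87 to 1.15, enter these means and counts. The other enzymes differed by −0.40 to 0.46, so the class figures are not separate from those 4 calls. Without overlap between the Treg groups were 5 of 12 enzymes (4 higher, 1 lower) and Hif1a, 6 of 33 members in all, where 12.3% of all genes did not overlap.

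**Figure D2:**
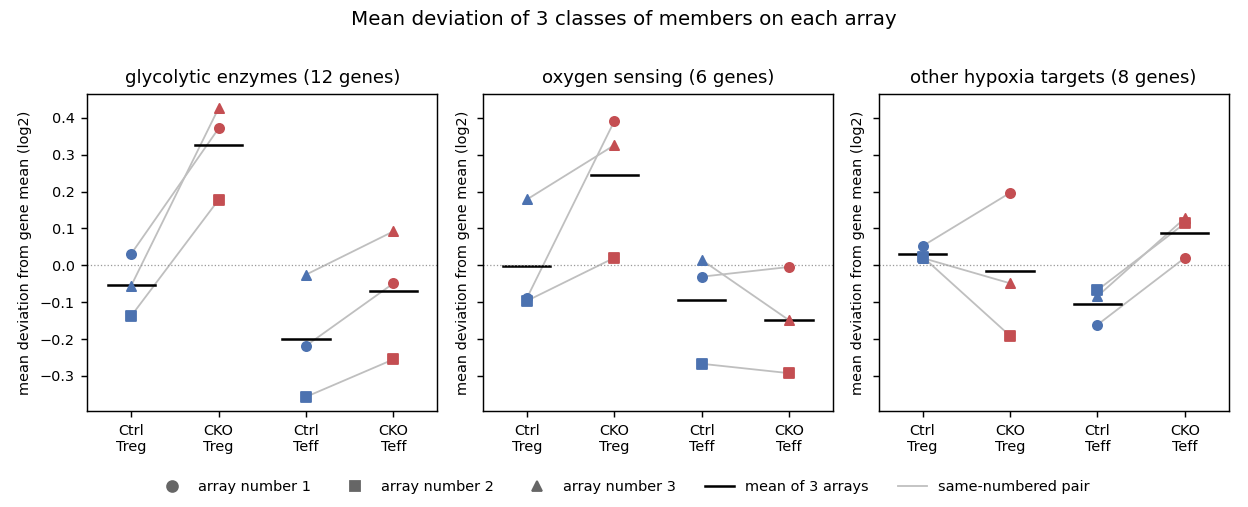
Mean deviation (y axis, log2 units) of 12 glycolytic enzymes, 6 oxygen-sensing genes and 8 other hypoxia targets from each gene's mean over the 12 arrays, by group (x axis). Points are arrays, black bars are means of 3 arrays and grey lines join same-numbered pairs. The enzymes, which include the 4 that passed with pairs, are highest on the 3 CKO Treg arrays (0.18 to 0.43). The other hypoxia targets have CKO Treg values on both sides of 0.

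Of the 6 oxygen-sensing genes Hif1a alone passed. Its partner Arnt differed by 0.30 (95% interval −0.31 to 0.90) at the probe used, while another Arnt probe differed by −0.43, so the probes disagree in sign. The hydroxylase genes Egln1 and Egln3 differed by 0.19 and 0.05, Vhl by −0.12 and Hif1an by −0.15, and none of the 5 passed in either fit. For Egln1 and Egln3 the number 1 pair was positive (0.89 and 0.43) and the other pairs were between −0.18 and −0.13.

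Pdk1, a flux regulator, makes a kinase that shuts pyruvate out of the mitochondrial oxidation route. It lay at 5.87, 5.29 and 5.80 in Ctrl Treg and at 6.55, 5.71 and 6.51 in CKO Treg, overlapping because array 2 of each genotype was low. Each pair was positive (0.68, 0.42 and 0.71), and the mean difference of 0.61 missed the threshold (limma, adjusted p = 0.786 without pairs and 0.0693 with pairs). Pfkfb4, whose enzyme sets the level of an activator of phosphofructokinase, differed by −0.02 with pairs going both ways. The lactate and monocarboxylate carriers Slc16a1 and Slc16a3 were dim, at 4.47 to 5.05 and 4.34 to 4.96 over the 12 arrays, and differed by 0.05 and −0.03.

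Of the other hypoxia targets in Treg 3 of 8 were positive, with a median of −0.13, and none passed in either fit of limma, with 0 of 8 at an unadjusted p under 0.05 without pairs and 3 with pairs, against 5.33% and 14.1% of all genes. The difference between this class and the enzymes was not tested. Ankrd37, a small ankyrin-repeat gene used as a hypoxia marker, differed by 0.57 (pairs 1.02, 0.49 and 0.19), and Kdm3a, a histone demethylase, by 0.28, with 0.33 and 0.64 at other Kdm3a probes, both positive in all 3 pairs. Ndrg1, a stress-response gene, was at −0.42 and negative in all pairs, as was Bnip3l, a mitophagy receptor, at −0.27. Mxi1, a Myc antagonist, was at −0.30, the collagen prolyl hydroxylases P4ha1 and P4ha2 at −0.16 and −0.10, and the angiogenic factor Vegfa at 0.02. On the Treg arrays P4ha2 lay at 4.39 to 4.80 and Vegfa at 4.46 to 5.03, near the array medians, where a fall could hardly be read. In glycogen and hexose phosphate handling, the phosphoglucomutases Pgm1 and Pgm2 were at 0.34 and 0.08 and the glycogen synthase Gys1 at −0.14, none past the threshold.

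**Figure D3:**
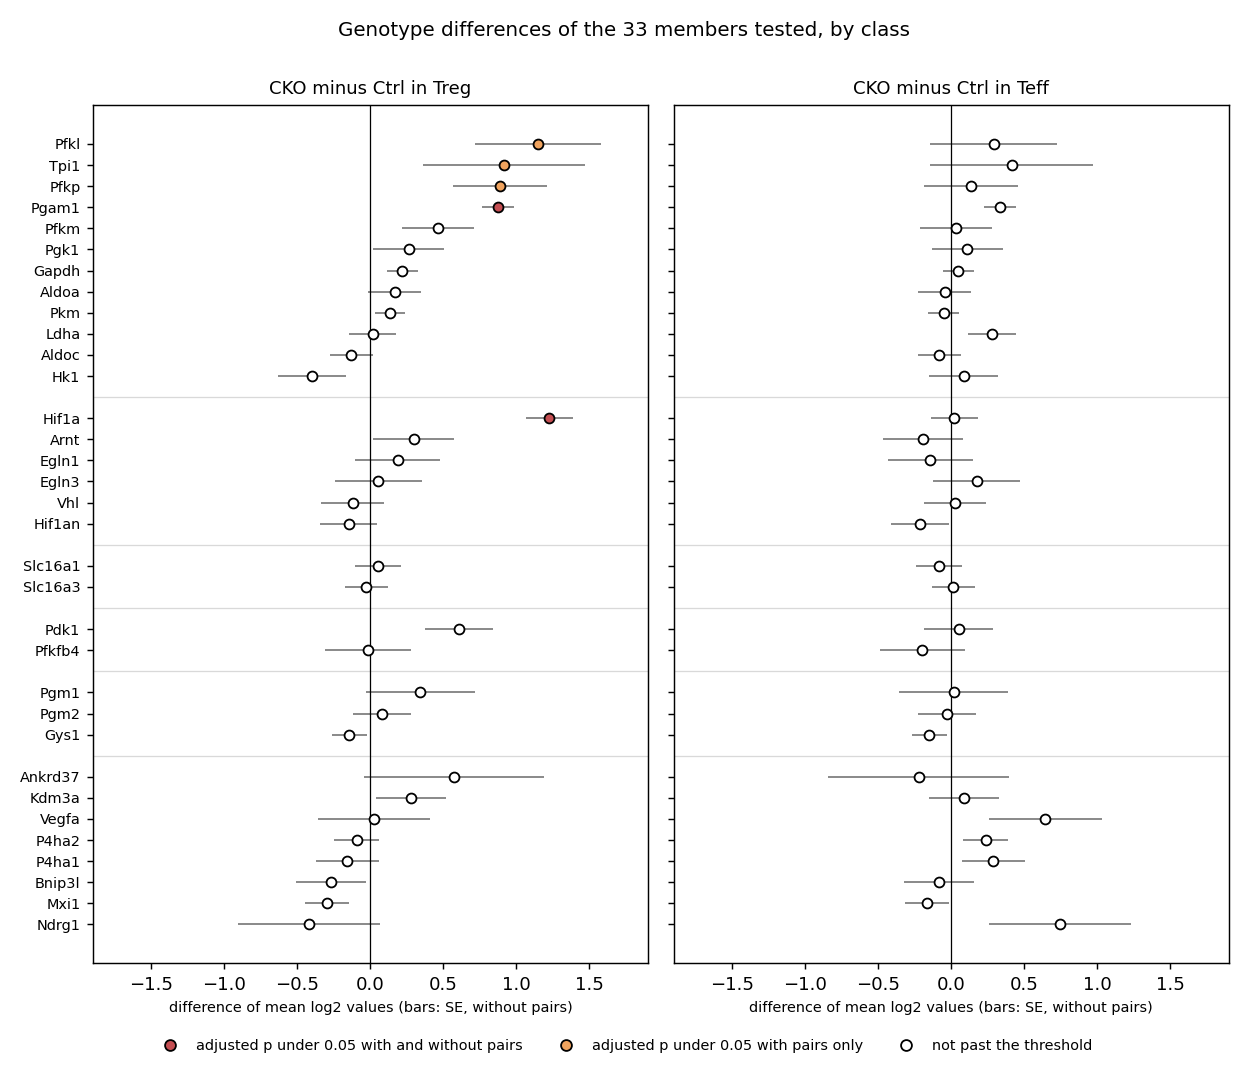
CKO minus Ctrl difference of mean log2 values (x axis) for the 33 members tested (y axis, grouped by class) in Treg (left) and Teff (right), with SE bars from the fit without pairs. Red points passed with and without pairs (Hif1a and Pgam1 in Treg), orange points with pairs only (Pfkl, Pfkp and Tpi1 in Treg) and white points in neither fit, as all 33 in Teff.

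Markers of other cells moved between the Treg groups as well. The neutrophil mean was lower on the CKO array of each Treg pair, by −1.01, −0.31 and −0.55, with 15 of 17 markers negative, and ranged from 5.93 to 8.67 in Ctrl and from 5.62 to 7.93 in CKO. The mean of 11 other myeloid markers differed by −0.38, 0.61 and 0.35, with 5 markers positive and 6 negative. Among them H2-Aa, H2-Ab1, H2-Eb1 and Cd74 were higher in CKO in all 3 Treg pairs. Cd74 lay at 11.06, 11.05 and 9.69 in Ctrl Treg and at 11.63, 11.80 and 10.42 in CKO Treg. The mean of 7 Treg markers was 9.11 to 9.59 in Ctrl Treg and 8.26 to 8.29 in CKO Treg, with 6 of the 7 negative. Foxp3, by which the cells were sorted, was the exception, at 8.94, 7.83 and 7.29 in Ctrl Treg and 8.80, 7.50 and 7.85 in CKO Treg. The mean of the CD4 T cell markers was lower in each pair by −0.41, −0.12 and −0.41. The part of these shifts in the members' differences was not tested.

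In Teff no member passed in either limma fit, where 0.0165% of all genes passed without pairs and 0.099% with them, and 1 of 33 members had an unadjusted p under 0.05 without pairs and 4 with pairs, against 4.17% and 10.4% of all genes. Hif1a lay at 7.70, 7.68 and 7.72 in Ctrl Teff and 7.95, 7.63 and 7.59 in CKO Teff, values that overlap, with a difference of 0.02 and a 95% interval of −0.33 to 0.37. Pgam1 was at 8.23, 8.24 and 8.22 against 8.64, 8.59 and 8.45, the only member whose Teff groups did not overlap, where 6.77% of all genes did not. Its difference of 0.33 had the sign seen in Treg in all 3 pairs (0.42, 0.35 and 0.23) and did not pass (limma, adjusted p = 1.00, and 0.305 with pairs). Over the 4 groups, Pgam1 was ordered as Ctrl Treg, Ctrl Teff, CKO Teff and CKO Treg with no overlap between neighbours.

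None of the other enzymes called in Treg passed in Teff. Pfkl differed by 0.29, with pairs at 0.25, 0.04 and 0.58 (limma with pairs, SE 0.13, adjusted p = 0.488). Tpi1 differed by 0.41, with pairs at 0.29, 0.61 and 0.35 (limma with pairs, SE 0.14, unadjusted p = 0.0152, adjusted p = 0.321). Pfkp differed by 0.14, with pairs at 0.35, 0.32 and −0.26 (limma with pairs, adjusted p = 0.819). Of the 12 enzymes 9 were positive, with a median of 0.10 against −0.02 over all genes. The largest differences among the members in Teff were in 2 hypoxia targets, Ndrg1 at 0.75 and Vegfa at 0.65, both positive in all 3 pairs and neither past the threshold with pairs (limma, adjusted p = 0.118 and 0.211). A second bright Ndrg1 probe differed by 0.25, with pairs at 0.41, 0.10 and 0.25, and a second Vegfa probe by 0.56.

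Ndrg1 was at 9.44, 9.51 and 8.24 in Ctrl Teff and at 10.21, 10.06 and 9.16 in CKO Teff, with array 3 the lowest of both groups. Vegfa was at 4.59, 5.59 and 4.60 against 5.46, 6.45 and 4.80, with array 2 the highest of both. Ankrd37 ran the other way to Ndrg1, with array 3 the highest in Ctrl (6.21, 5.12 and 7.12) and in CKO Teff (5.61, 4.91 and 7.26). In these arrays the neutrophil mean was 7.61, 9.66 and 5.96 in Ctrl Teff and 8.54, 9.04 and 6.79 in CKO Teff, so that array 2 was the highest and array 3 the lowest in each genotype. In Treg, array 3 was also the lowest for Ndrg1 (8.96 in Ctrl and 8.68 in CKO) and the highest for Ankrd37 (6.66 and 6.85). The neutrophil mean there was lowest on array 2 (5.93 and 5.62) and stood at 8.48 and 7.93 on array 3. The basophil and mast cell mean was 5.41, 5.92 and 4.81 in Ctrl Teff and 8.59, 8.13 and 5.20 in CKO Teff. The mean of 11 CD8 and NK markers was higher on the CKO array of each Teff pair, by 0.76, 1.62 and 0.07, with CKO Teff array 2 the highest at 7.96. The rise was largest in Klra7 (5.52 to 10.84 in pair 2) and Klre1 (6.17 to 10.33). Cd8a, Ncr1 and Klrb1c stayed at 4.27 to 4.80 on the Teff arrays. Cd8b1 was lower in CKO in pairs 1 and 2, and Eomes and Nkg7 were lower in pair 3. The mean of 11 other myeloid markers was higher by 1.44, 0.36 and 1.17, again with CKO Teff array 2 the highest at 8.49. In pair 2 these markers went both ways. Lyz1 (12.18 to 11.44), Lyz2, Csf1r, Cd14 (12.04 to 11.24) and Ly86 were lower in CKO. H2-Aa, H2-Ab1, H2-Eb1 (8.85 to 10.74) and Cd74 were higher, as were Adgre1 and Itgam by less. The part of these markers in the values of Ndrg1, Vegfa and Ankrd37 was not tested.

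**Figure D4:**
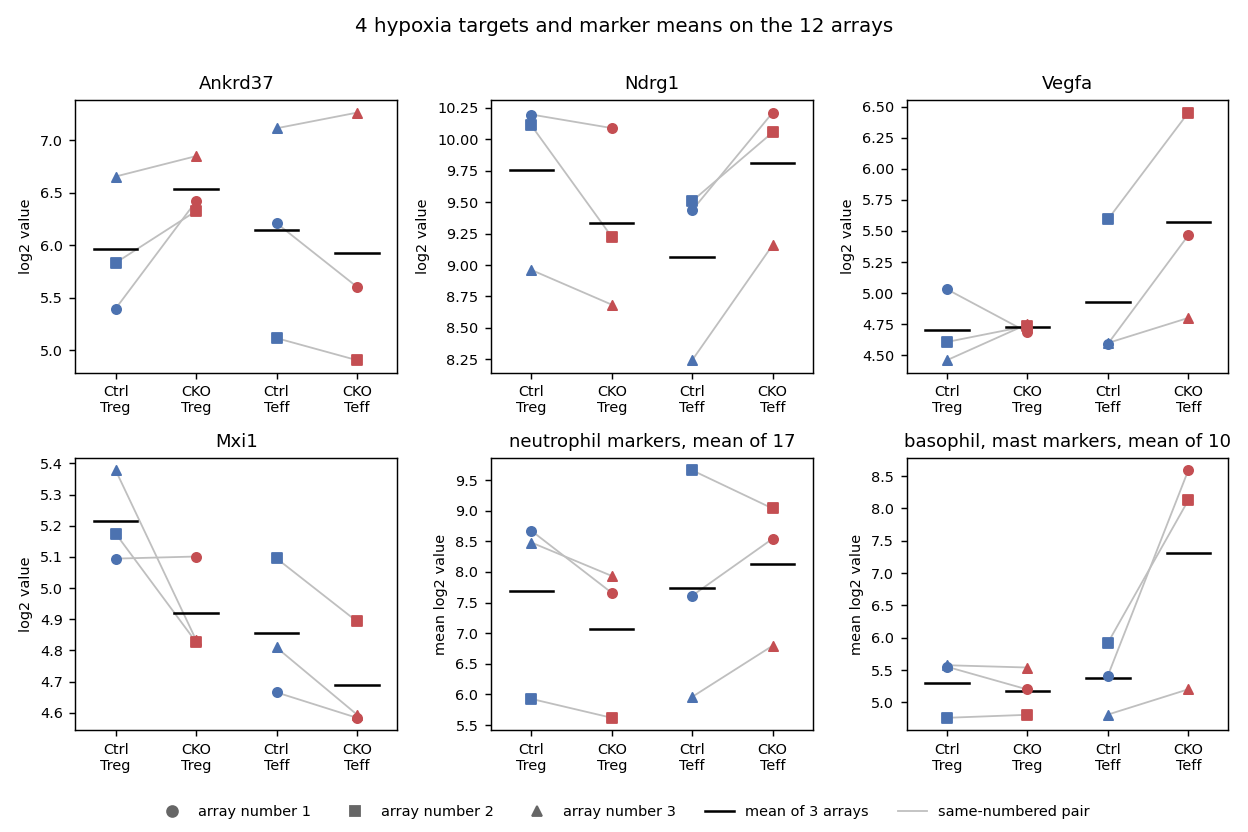
Log2 values of Ankrd37, Ndrg1, Vegfa and Mxi1 and mean log2 values of 17 neutrophil and 10 basophil and mast cell markers (y axes) on the 12 arrays by group (x axis). Points are arrays, black bars are means of 3 arrays and grey lines join same-numbered pairs. On Teff arrays 3 (triangles) Ankrd37 is highest (7.12 and 7.26) and Ndrg1 lowest (8.24 and 9.16) of their groups, as is the neutrophil mean (5.96 and 6.79). On Treg arrays 3 Ankrd37 is highest and Ndrg1 lowest too, but the neutrophil mean is lowest on Treg arrays 2 (5.93 and 5.62).

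Whether the genotype difference itself differed between Treg and Teff was tested as an interaction, which called 0.0165% of all genes without pairs and 0.0413% with pairs, and none of the 33 members in either limma fit (2 of 33 at an unadjusted p under 0.05 and 9 with pairs, against 3.48% and 11.4% of all genes). The Hif1a pairs differed by 1.06 to 1.51 in Treg and by −0.12 to 0.25 in Teff. Hif1a came closest, with a difference of differences of 1.20 ± 0.22 (limma, adjusted p = 0.519, and 0.0972 with pairs). Pgam1 was at 0.54 (1.00, and 0.235 with pairs), Pfkl at 0.86 (0.155 with pairs) and Ndrg1 at −1.17 (0.133 with pairs). A Hif1a rise that passed in Treg and not in Teff is therefore not shown to be larger in Treg by this test.

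Between Treg and Teff of the same genotype no member passed limma's test, where 1.01% of all genes passed in Ctrl and 0.355% in CKO, and 8 and 7 of 33 members had an unadjusted p under 0.05, against 10.4% and 10.8% of all genes. These comparisons share the Treg arrays with those between the genotypes. The lowest adjusted p-values were those of Pkm and Pdk1 in CKO and Ldha in Ctrl. Pkm was at 12.38, 12.55 and 12.37 in Ctrl Treg against 12.10, 12.08 and 11.93 in Ctrl Teff, and at 12.59, 12.55 and 12.56 in CKO Treg against 12.12, 11.95 and 11.89 in CKO Teff. All 6 Treg arrays were above all 6 Teff arrays, by 0.40 ± 0.11 in Ctrl (limma, adjusted p = 0.144) and 0.58 ± 0.11 in CKO (0.0513). Within the array sets the CKO difference was 0.56 and 0.67, and with the set as a term its adjusted p was 0.0438.

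Ldha was at 12.90, 12.44 and 12.87 in Ctrl Treg against 11.94, 11.88 and 12.26 in Ctrl Teff, a difference of 0.71 ± 0.16 without overlap (limma, adjusted p = 0.0839). In CKO it was at 12.70, 12.86 and 12.70 against 12.48, 12.10 and 12.35, also without overlap, with a difference of 0.45 (0.335). Pdk1 was higher in Treg of both genotypes without overlap, with Teff values of 4.90 to 5.35, by 0.57 in Ctrl (0.410) and 1.13 ± 0.24 in CKO (0.0741). Hif1a pointed in opposite directions in the 2 genotypes, lower in Ctrl Treg than in Ctrl Teff by −0.52 (0.215) and higher in CKO Treg than in CKO Teff by 0.68 (0.112), each without overlap.

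Pgm1, which links glycogen to glycolysis, was at 9.28, 9.51 and 9.41 in Ctrl Treg and 9.46, 9.61 and 10.15 in CKO Treg. On Teff arrays 1 and 2 it was at 8.28 and 8.12 in Ctrl and 8.16 and 8.24 in CKO, and on Teff array 3 at 9.33 and 9.38. Its difference in CKO was 1.15 (limma, adjusted p = 0.257, and 0.0454 without CKO Teff array 3, when it was 1.54). Tpi1 had the same low Teff arrays, at 10.14 and 9.72 in Ctrl and 10.43 and 10.33 in CKO, against 11.74 and 12.09 on array 3. Its Ctrl difference was therefore 1.12 inside 1 array set and −0.46 inside the other, and what sets Teff array 3 apart was not tested.

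**Figure D5:**
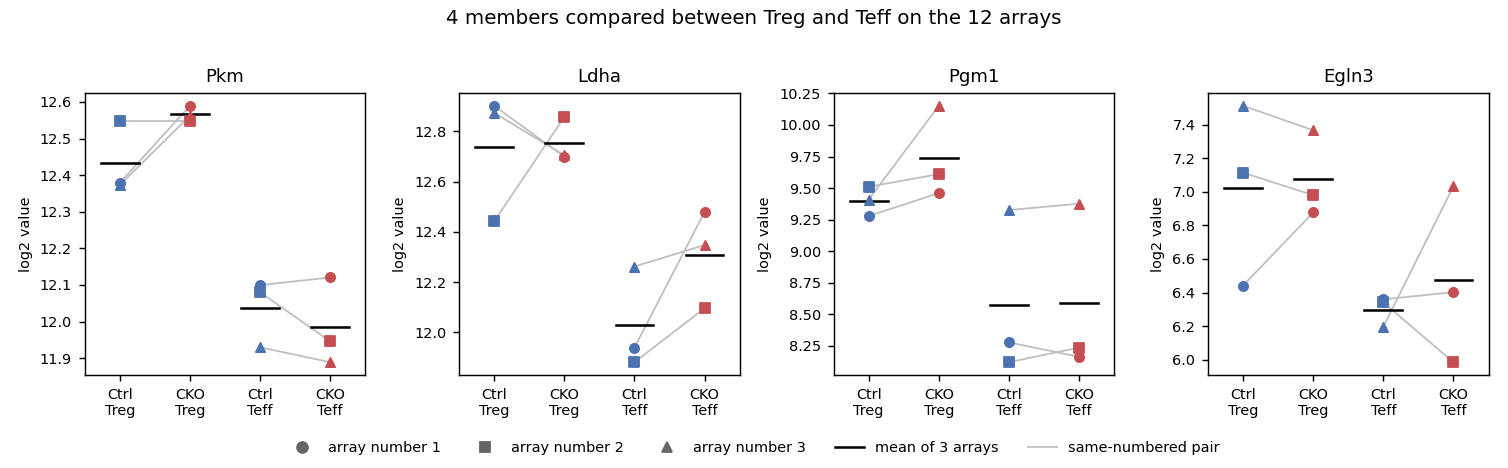
Log2 values of Pkm, Ldha, Pgm1 and Egln3 (y axis, a scale of its own in each panel) on the 12 arrays by group (x axis). Points are arrays, black bars are means of 3 arrays and grey lines join same-numbered CKO and Ctrl arrays; all Treg values of Pkm (12.37 to 12.59) lie above all its Teff values (11.89 to 12.12), and Pgm1 on Teff arrays 3 (9.33 and 9.38) lies near the Treg values.

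Of the 33 members 9 did not overlap between Treg and Teff in Ctrl and 9 in CKO, where 14.3% and 13.7% of all genes did not. In Ctrl, Pkm, Ldha, Pdk1, Egln3, Bnip3l and P4ha1 were higher in Treg and Hif1a, Pgam1 and Kdm3a lower. In CKO, Pkm, Ldha, Pdk1, Gapdh, Pgam1, Hif1a and Pgm1 were higher in Treg and Vegfa and P4ha2 lower. Pkm, Ldha and Pdk1 were thus higher in Treg in both genotypes, whereas Hif1a and Pgam1 were lower in one and higher in the other. The median difference of the 12 enzymes was 0.15 in Ctrl, with 7 positive, and 0.37 in CKO, with 11 positive, against 0.01 and 0.03 over all genes.

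A further 69 genes of the same pathways, listed beside the 40, held no call. Of these, 58 had a probe and 47 were tested: 7 of oxygen sensing, 17 of glycolysis and its branches and 23 hypoxia targets. None passed limma's test in any of the 5 comparisons, with or without the replicate number as a block. In Treg 1 of the 47 had an unadjusted p under 0.05 between the genotypes, and 9 with pairs, against 5.33% and 14.1% of all genes. In Treg 29 of the 47 were positive between the genotypes, with a median of 0.10. By class, 16 of the 23 further hypoxia targets were positive (median 0.10, 7 at an unadjusted p under 0.05 with pairs), 9 of the 17 genes of glycolysis and its branches (median 0.09, 1 at that p) and 4 of the 7 of oxygen sensing (median 0.00, 1 at that p). The closest were Fam162a, a hypoxia-induced mitochondrial gene, at 0.73 (limma with pairs, adjusted p = 0.117), and Wsb1, a ubiquitin ligase gene, at −0.46 (0.133).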

How the data were processed

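The authors deposited 1 table of log2 intensities for 12 Illumina arrays, 3 per group, covering 31641 probes. GenomeStudio and limma 3.30.11 made it, per the submitters' processing notes, and the sources used here do not name the background correction or normalization. Arrays were grouped by their titles. Probes with 1 gene symbol (28197) that lay above their array's median on at least 3 arrays were kept (17579), and the brightest per gene was used (12119 genes). Group means were fitted to all 12 arrays with limma 3.58.1 in R 4.3.3 (lmFit, eBayes, two-sided, Benjamini-Hochberg adjustment over all genes, threshold 0.05), and again with the replicate number within cell type as a block ("with pairs"). For Treg against Teff the block was instead the replicate number within genotype. Residuals of same-numbered CKO and Ctrl arrays correlated at 0.519 to 0.589 in Treg and 0.348 to 0.737 in Teff, each array best with its own number. The fit was also run on simulated data. Recovery there was required only for differences larger than any reported for the members, so that check does not vouch for their calls. The members, lists and tests were chosen with earlier results of these data known. All members are named, with values per array for those that passed and ranges or differences for others. Members given array by array without passing, the array sets, the tests of other probes and the fits that leave out a pair were chosen after seeing the data. The number of arrays limits the precision.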

Additional observations from a re-analysis of the deposited data

How the results depend on the processing

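None of the 11 differences followed through the alternatives changed sign. They include all those that passed in the fits above, so a stable sign says little about the other members' differences, whose signs were not followed. Hif1a kept its Treg call in 20 of 26 alternatives (adjusted p 0.00101 to 0.123) and Pgam1 in 16 of 26 (0.000859 to 0.214). Pfkl passed in 3 of 26 (0.00584 to 1.00), and Pfkp (0.0195 to 1.00) and Tpi1 (0.0164 to 1.00) in 1 of 26 each, the block with all pairs. Between Treg and Teff in CKO, Pkm passed in 6 of 23 (0.0270 to 0.221), Pdk1 in 4 of 22 and Pgm1 in 1 of 23, and in Ctrl Ldha passed in 1 of 23 (0.0450 to 0.279). The Hif1a interaction passed in 1 of 28 (0.0495 to 1.00). Limma's tests, adjusted over all genes, gave these values.

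Counts of genes past the threshold, and of members among them, moved as follows, and the cause was not tested. Genotype in Treg (12 genes, 2 members without pairs) gave 34 genes with array weights, 264 and 5 members with the replicate block, 155 and again 2 members with it as random, 25 and 0 members with only the groups compared, 25 with the array set as a term, 29 and 1 member with the block without pair 1, 54 without pair 2 and 60 without pair 3. It gave 1 member with the 75th percentile filter and 0 members with trend and robust settings. Leaving out 1 array gave 5 (CKO Treg 1) to 19 genes and 0 to 2 members, with 0 without Ctrl Treg 3, CKO Treg 1 or CKO Treg 2.

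Genotype in Teff (2 genes) gave 1 with the 75th percentile filter, 12 with the replicate block, 8 with it as random, 0 with only the groups compared, and 4, 37 and 129 with the block without pairs 1, 2 and 3. Leaving out 1 array gave 0 to 52 (CKO Teff 3). The interaction (2 genes) gave 0 with the 75th percentile filter, 4 with trend and robust settings, 5 with the block, 6 and 1 member (Hif1a) with it as random, 0 and 4 with the block without Treg pairs 1 and 2, and 0, 8 and 120 without Teff pairs 1, 2 and 3. Leaving out 1 array gave 0 to 22 (CKO Teff 3).

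Treg against Teff in Ctrl (123 genes, 0 members) gave 247 with array weights, 187 and 1 member with the random block, and 29 with only the groups compared. Leaving out 1 array gave 43 (Ctrl Treg 2) to 162 (CKO Teff 3). In CKO (43 genes, 0 members) it gave 82 with the 75th percentile filter, 86 with trend and robust settings, 245 and 2 members with array weights, 20 with the block, 125 and 2 members with it as random, 4 with only the groups compared, and 66 and 1 member with the array set. It gave 1 member with quantile normalization, with no filter and with the mean of probes. Leaving out 1 array gave 16 (CKO Treg 1) to 262 genes and 0 to 2 members (CKO Teff 3). The enzymes' median there (0.37) was 0.45 with the 75th percentile filter, 0.29 with the mean of probes, 0.30 with array weights and 0.30 to 0.48 with 1 array left out.

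Between Treg and Teff, residuals of same-numbered arrays correlated at −0.266 to 0.265 in Ctrl and 0.0413 to 0.325 in CKO, so their numbers were not taken as pairs, and the block called no member there. With 3 arrays a group, the members' 95% intervals for a genotype difference without pairs reach 0.23 to 1.37 to each side.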
